A study of Mus musculus with 6 samples.

Results

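Genes that start or restrain caspase activity were followed in butyrate-treated and control CD8+ T cells: the initiator caspase genes Casp8 and Casp9, the death receptor adaptor genes Fadd and Ripk1, and the inhibitor genes Cflar, Birc2, Birc3 and Xiap. They were chosen by name as genes of the caspase pathway, with earlier results of these data known. All 8 were found among the 27179 gene numbers of the table, and all 8 passed the low-count filter that left 11740 genes. The butyrate group held 3 libraries and the control group 3. All 6 libraries came from total spleen cells of transgenic gBT-I mice kept free of specific pathogens, whose T cells carry 1 receptor for the herpes simplex virus peptide gB498-505. The cells were activated in vitro with that peptide and LPS, were given IL-2 daily between days 2 and 5, and were collected at day 6. The labelled difference between the groups is butyrate, a short-chain fatty acid that inhibits histone deacetylases, which the treated cultures received from day 3. The dose, the age of the mice, and whether the replicates were separate mice or cultures are not given in the labels, so the p-values below measure the spread between these libraries, which may be technical.

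Caspases are proteases that take a cell apart in apoptosis. Death receptors such as Fas and the TNF receptor recruit FADD, directly or through other adaptors, and FADD gathers caspase-8 into an active complex, while mitochondrial damage activates caspase-9 through APAF1. The brakes sit at both entries: c-FLIP, the product of Cflar, resembles caspase-8 but lacks its catalytic activity and competes for FADD, XIAP binds and blocks caspase-9 and the executioner caspases, and cIAP1 and cIAP2, from Birc2 and Birc3, attach ubiquitin to RIPK1 at the TNF receptor and so favour survival signals. In T cells caspase-8 is also needed for expansion after activation, because it holds back necroptosis driven by RIPK1 and RIPK3.

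All 4 inhibitor genes fell with butyrate, from the most to the least: Xiap fell by 49.3%, Birc3 fell by 47.7%, Cflar fell by 38.6% and Birc2 fell by 29.4%. Over all genes tested, 22.5% were called lower and 23.5% higher, and the role of inhibitor was assigned while the values were known. None of the other 4 members passed the test, though Ripk1 did with the replicate number as a block (edgeR adjusted p = 0.0294, against 0.0506 without). The promoter windows of the 4 genes that fell are shown because these genes moved together; each runs from 250 bases before to 50 bases after a RefSeq start (GRCm38.p6), 5′ to 3′ on the gene's strand. All 8 members matched the RefSeq promoter table, and for genes with several starts the first listed was taken. The windows are chrX:42068148-42068447 (plus strand) for Xiap, chr9:7873121-7873420 (minus) for Birc3, chr1:58711241-58711540 (plus) for Cflar and chr9:7837008-7837307 (minus) for Birc2. Capitals mark matches to 9 motifs searched on both strands: the NF-kB consensus, the ETS core CCGGAAG, the GC box GGGCGG, the CCAAT box CCAAT, the TATA box TATAAA, the CRE TGACGTCA, the AP-1 site TGANTCA, the interferon response element (GAAA, any 2 bases, GAAA) and the NRF1 site (GCGCA directly followed by TGCGC).
Xiap: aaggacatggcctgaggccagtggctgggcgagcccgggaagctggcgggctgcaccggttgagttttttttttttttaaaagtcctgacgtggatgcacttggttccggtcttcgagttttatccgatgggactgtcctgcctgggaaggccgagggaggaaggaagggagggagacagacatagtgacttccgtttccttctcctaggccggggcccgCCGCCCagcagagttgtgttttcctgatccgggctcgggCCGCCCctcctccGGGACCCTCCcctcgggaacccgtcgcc
Birc3: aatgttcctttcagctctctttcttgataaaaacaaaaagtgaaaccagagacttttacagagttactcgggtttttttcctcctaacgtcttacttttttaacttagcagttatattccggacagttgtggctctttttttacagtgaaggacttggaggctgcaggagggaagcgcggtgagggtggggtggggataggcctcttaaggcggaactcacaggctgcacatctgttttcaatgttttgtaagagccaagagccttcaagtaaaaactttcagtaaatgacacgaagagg
Cflar: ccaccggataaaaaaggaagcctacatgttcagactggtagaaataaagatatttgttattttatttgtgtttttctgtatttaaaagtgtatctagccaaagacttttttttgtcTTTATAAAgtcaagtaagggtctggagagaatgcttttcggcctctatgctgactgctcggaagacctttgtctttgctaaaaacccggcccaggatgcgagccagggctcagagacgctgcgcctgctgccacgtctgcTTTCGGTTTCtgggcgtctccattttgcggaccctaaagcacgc
Birc2: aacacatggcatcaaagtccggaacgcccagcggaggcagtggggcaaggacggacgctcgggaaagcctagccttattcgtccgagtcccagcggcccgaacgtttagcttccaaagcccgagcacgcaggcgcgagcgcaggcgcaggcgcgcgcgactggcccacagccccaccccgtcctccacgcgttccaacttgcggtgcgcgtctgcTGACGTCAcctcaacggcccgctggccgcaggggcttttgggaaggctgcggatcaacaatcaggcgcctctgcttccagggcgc

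No motif searched was shared by 2 of these 4 windows. Xiap had 3 windows listed and Birc2 had 2, and only the first of each was read. The Xiap window taken starts at 42068148, inside the gene, which spans 42059613 to 42109664. Positions are those of a match's first base, with 1 at the start and -1 just before it. Xiap had GC boxes at -30 and 10 and an NF-kB match at 23. Cflar had 2 overlapping TATA matches, at -134 and -132, and an interferon response element on the opposite strand at 7. Birc2 had a CRE at -35, and Birc3 had no match to any of the 9 motifs in its window. Among 32851 RefSeq windows of the same length, an NF-kB match stood in 8.46%, a GC box in 35.7%, a TATA box in 13.6%, an interferon response element in 3.44% and a CRE in 1.79%. The other motifs stood in 37.4% (CCAAT box), 8.86% (ETS), 7.81% (AP-1) and 0.971% (NRF1) of the windows. GC content was 61.7% in the Xiap window, 43% in Birc3, 45% in Cflar and 67% in Birc2. It was 42% for Casp8, 66% for Casp9, 60.3% for Fadd and 61.7% for Ripk1, against a median of 52.7% over all windows. GC boxes also stood in the windows of Casp9 (4), Ripk1 (3) and Fadd (2), and a CCAAT box in that of Casp8. The Casp8 window starts at 58802252, inside the gene, which spans 58795233 to 58847503. Ripk1 had 2 windows listed, and only the first was read. A match describes the sequence and does not show a bound site.

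Library totals ran from 5383380 to 5809517 counts with butyrate and from 5415021 to 6244350 in control, and 3 counts, as many as a count of 0 leaves possible, came to 0.487 to 0.556 CPM. CPM are counts per 1000000 after TMM scaling. The members held 145 to 1273 counts each in a library, far above that limit. The CD8+ T cell label was checked on 8 markers, whose summed level was 3805 to 4883 CPM with butyrate and 4140 to 4533 CPM in control. Trac, a T cell receptor gene, held the largest share of that sum, at 2552 ± 593 CPM with butyrate and 2063 ± 362 CPM in control (SD, n = 3 each). Of the 8, 2 were called lower, as the inhibitor genes were: Cd3e (log2 fold change -0.61, edgeR adjusted p = 0.000816) and Lck (-0.43, adjusted p = 0.00605). Markers of other spleen cells were uneven. Adgre1 averaged 0.119 ± 0.103 CPM with butyrate and 0.108 ± 0.187 CPM in control (SD, n = 3 each), and Pax5 and Siglech had 0 counts in every library, but Lyz2 averaged 25 ± 13.9 CPM with butyrate and 22.5 ± 20.1 CPM in control. Called higher were Sdc1 (17.7 ± 6.19 CPM with butyrate and 1.45 ± 0.636 CPM in control) and Cd22 of the B and plasma cell list. Also higher were Cxcr2 and Siglecf of the granulocyte list. So were Klrb1c and Tyrobp of the NK cell list, and Cd4 and Zbtb7b of the CD4 T cell list. The log2 fold changes of these genes ran from 0.75 (Zbtb7b) to 5.77 (Cxcr2). In control, Cxcr2 (0.0618 ± 0.107 CPM) and Siglecf (0.400 ± 0.236 CPM) averaged below the limit of 3 counts. The sizes of their changes are therefore uncertain. Eomes of the NK cell list was called lower. Summed levels of the B and plasma cell list (9 genes) were 40.9 to 49.2 CPM with butyrate and 27.5 to 29.7 CPM in control, and those of the granulocyte list (7 genes) 10.7 to 18.1 and 0.180 to 1.62 CPM. The erythroid and platelet list (7 of 8 genes in the table) stood at 3.61 to 62.5 and 1.48 to 7.46 CPM, the macrophage and dendritic cell list (12 genes) at 31.6 to 62.8 and 18.5 to 73.8 CPM, the NK cell list (6 genes) at 61.5 to 74.9 and 76.6 to 94.1 CPM, and the CD4 T cell list (4 genes) at 121 to 130.2 and 74.0 to 83.2 CPM. The part of these cells in the results was not tested. In bulk RNA, fewer cells of a type and less RNA per cell cannot be told apart.

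Among the inhibitors of apoptosis, Xiap (gene 11798, chromosome X, 42059613 to 42109664) had 105, 103 and 98.5 CPM in the 3 butyrate libraries, against 197, 199 and 207 CPM in the 3 control libraries. The groups were far apart, and each varied by only a few CPM among its libraries. The means were 102 ± 3.19 CPM with butyrate and 201 ± 4.76 CPM in control (SD, n = 3 each). The log2 fold change of Xiap was -0.98 (SE 0.074, 95% interval -1.15 to -0.81, edgeR quasi-likelihood adjusted p = 4.52e-05), and only 0.852% of the genes tested had a smaller p.

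Birc3, the cIAP2 gene (11796, chromosome 9, 7847468 to 7873205), had 28.3, 29.4 and 26.8 CPM with butyrate, against 56.0, 51.6 and 54.0 CPM in control. As for Xiap, the highest butyrate library lay well below the lowest control library. Its log2 fold change was -0.93 (SE 0.0919, interval -1.14 to -0.73, edgeR adjusted p = 0.00012).

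Birc2, the cIAP1 gene (11797), lies 10.3 kb from Birc3, at 7818226 to 7837131 on chromosome 9, and encodes the closest relative of cIAP2. It had 92.5, 83.9 and 74.5 CPM with butyrate, against 131, 119 and 106 CPM in control. The groups did not overlap, but each was spread more widely than the gap between them. The log2 fold change was -0.50 (SE 0.11, interval -0.75 to -0.25, edgeR adjusted p = 0.00575). No source used here states the treatment of reads that fit both cIAP genes.

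Cflar (gene 12633, chromosome 1, 58711311 to 58758884), the gene of the caspase-8 inhibitor c-FLIP, had 99.7, 87.3 and 93.1 CPM with butyrate, against 156, 152 and 149 CPM in control. All 3 butyrate libraries were lower than all 3 control libraries, with a gap wider than the range within either group. The log2 fold change was -0.70 (SE 0.0806, interval -0.89 to -0.52, edgeR adjusted p = 0.000234).

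Casp8 (gene 12370, chromosome 1, 58795233 to 58847503), which encodes the initiator caspase of the death receptor route, had 152, 140.3 and 178 CPM with butyrate, against 175, 139 and 132 CPM in control. The groups overlapped across most of their range, with 1 high library in each. Its log2 fold change was 0.08 (SE 0.129, interval -0.22 to 0.37, edgeR adjusted p = 0.657), so a fall as large as that of its neighbour Cflar lies outside the interval. Without butyrate replicate 3, the highest library, the value was -0.025.

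Casp9 (gene 12371, chromosome 4, 141793612 to 141815978), the initiator of the mitochondrial route, had 41.2, 37.5 and 34.7 CPM with butyrate, against 42.7, 37.5 and 42.7 CPM in control. The groups overlapped, and the log2 fold change was -0.11 (SE 0.106, interval -0.35 to 0.13, edgeR adjusted p = 0.403). The 3′ end of Casp9 overlaps Cela2a, which had 0 counts in all 6 libraries.

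Fadd (gene 14082, chromosome 7, 144578323 to 144582441), the adaptor between death receptors and caspase-8, had 35.9, 31.6 and 31.4 CPM with butyrate, against 38.5, 38.4 and 34.1 CPM in control. Only the highest butyrate library reached into the control range. The log2 fold change was -0.17 (SE 0.105, interval -0.40 to 0.07, edgeR adjusted p = 0.228).

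Ripk1 (gene 19766, chromosome 13, 34002225 to 34035170), the kinase and scaffold that cIAP1 and cIAP2 modify, was the member closest to the threshold. It had 121, 103 and 114 CPM with butyrate, against 131, 131 and 135 CPM in control, and the groups did not overlap. Its log2 fold change was -0.23 (SE 0.0841, interval -0.42 to -0.04) at an edgeR adjusted p of 0.0506. With the replicate number as a block the adjusted p was 0.0294, and without butyrate replicate 1 it was 0.0329 (log2 fold change -0.28). Leaving out any other library gave an adjusted p of 0.0809 to 0.152. The adjusted p was 0.107 by DESeq2 and 0.178 with upper quartile scaling (log2 fold change -0.15). The start of Ripk1 overlaps Serpinb6a, and in the overlap reads could count for either gene; Serpinb6a was not called (43.6 ± 11.7 CPM with butyrate and 47.4 ± 4.3 CPM in control, SD, n = 3 each).

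**Figure D1:**
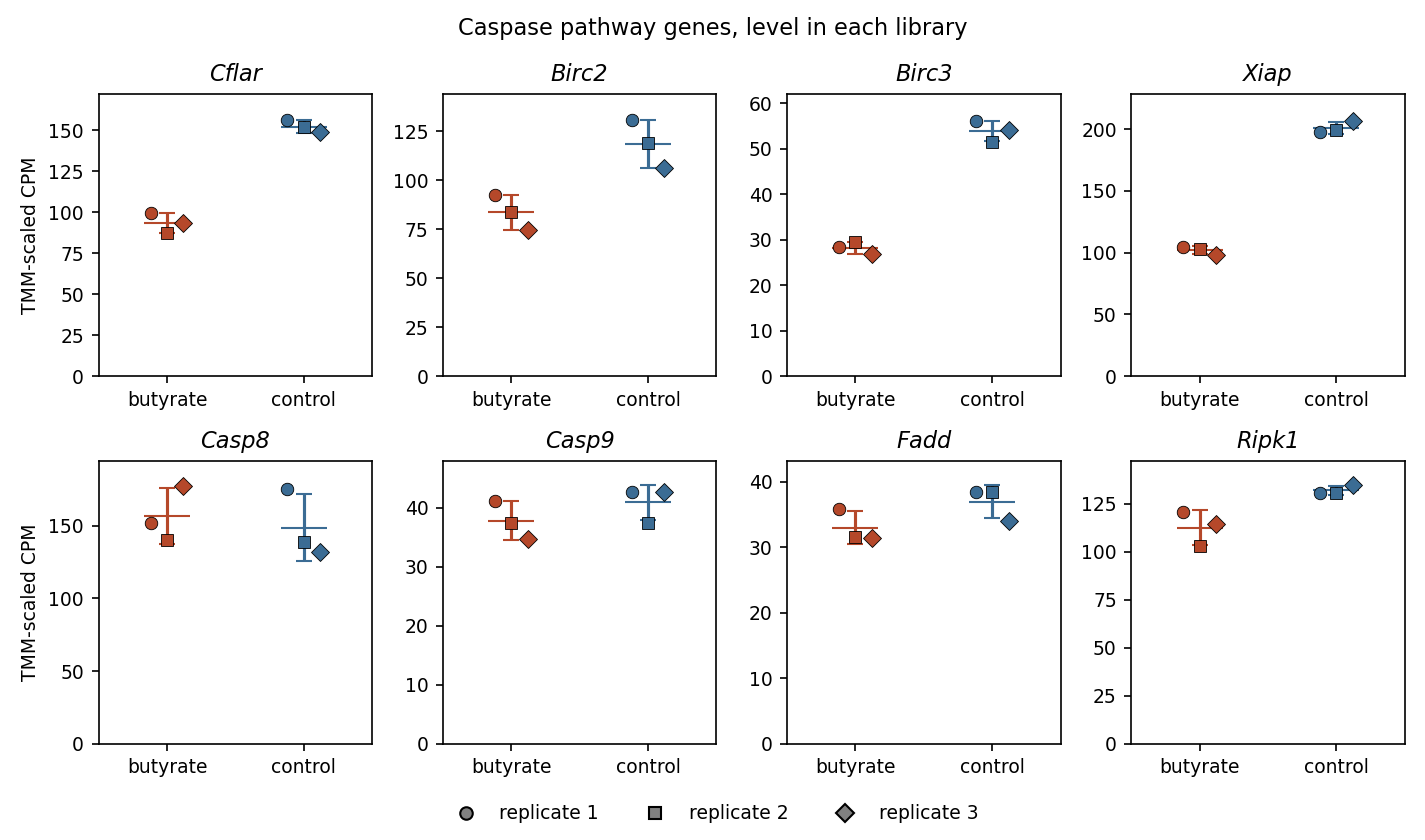
TMM-scaled CPM of the 8 members in each of the 3 butyrate and 3 control libraries. Points are libraries, with shapes for replicate numbers; horizontal lines are means and bars ± SD. The groups are apart in the upper row (Cflar, Birc2, Birc3, Xiap) and in the panel of Ripk1, and overlap for Casp8, Casp9 and Fadd.

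In all, 4 of the 8 members were called lower, where 22.5% of all genes tested were lower. Called higher were 0, where 23.5% of all genes were (45.9% were called in either direction). The members were chosen with earlier results of these data known, so these shares are a description and not a test. With upper quartile scaling 28.4% of all genes were called higher and 17.6% lower, and the members' counts were the same. By unadjusted edgeR p, 5 members were lower and 0 higher. DESeq2 called 4 lower and limma voom 5, and both called 0 higher. The groups did not overlap for 5 of the 8 members, against 57.1% of all genes, so that share is close to the background; in all 5 butyrate was lower, as it was in 28.2% of all genes. The median log2 fold change was -0.37 over the members and 0.00 over all genes. Against a fold of 1.5 (glmTreat), only Xiap (adjusted p = 0.00113) and Birc3 (0.00563) were called, while Cflar (0.153) and Birc2 (1) were not. No scaling turned any member's direction.

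**Figure D2:**
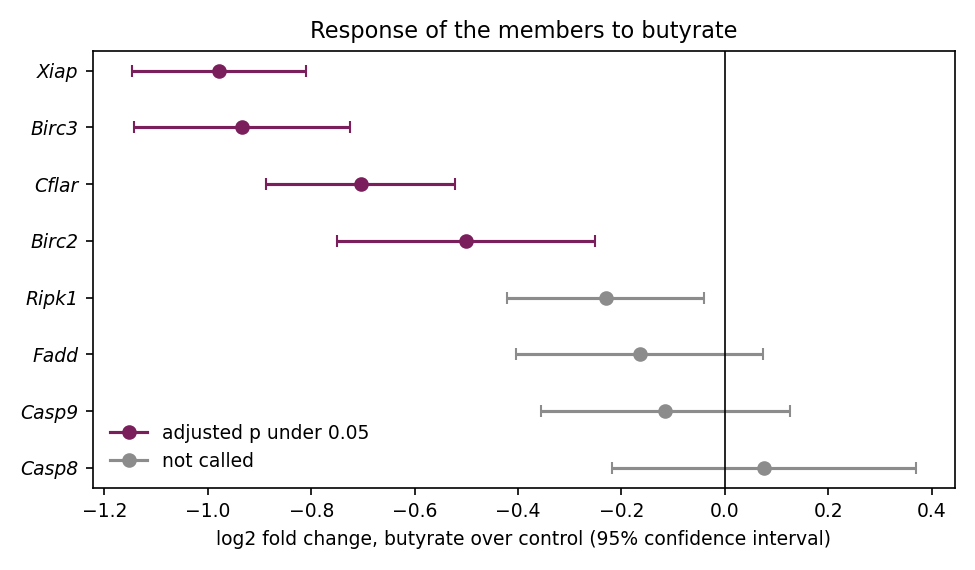
Log2 fold change of each member, butyrate over control, with its 95% interval from the edgeR quasi-likelihood fit; colour marks an adjusted p under 0.05. The intervals of Xiap, Birc3, Cflar and Birc2 lie below 0, as does that of Ripk1, which missed the adjusted threshold at 0.0506.

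The members differed in how tightly their replicates agreed. Xiap had a coefficient of variation of 3.13% with butyrate and 2.37% in control, below the 4.2% and 2.95% that counting alone gives at its depth. Birc3 likewise varied by 4.64% and 4.11%, where counting gives 8% and 5.7%. Casp8 varied most, by 12.2% with butyrate and 15.6% in control, where counting gives 3.4% and 3.44%. Birc2 followed, at 10.8% and 10.3%. The high Casp8 values came from butyrate replicate 3 and control replicate 1.

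Levels were also compared between genes as CPM per kilobase of exon, using the union of exons of the GENCODE basic transcripts, which is longer than any single transcript where a gene has several. Casp8 was the highest of the 8 per kilobase, at 54.1 with butyrate and 51.4 in control, followed by Birc2 at 23.0 and 32.5. In control Xiap came next, at 26.0, ahead of Ripk1 at 19.4 and Cflar at 19.3, whose libraries overlapped. With butyrate Ripk1, at 16.5, stood above Xiap, at 13.2, and Cflar, at 11.9, and the lowest library of Xiap stood just above the highest of Cflar. Birc3 was the lowest with butyrate, at 6.64, but stood above Casp9 and Fadd in control, where it was at 12.7. Casp9, at 9.71 and 10.5, and Fadd, at 8.45 and 9.48, overlapped each other in both groups.

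Pairs of members that act on each other, or that lie side by side, were compared as ratios of read counts within a library. The size of such a ratio depends on the lengths of both genes and does not compare transcript numbers, but its difference between groups depends on neither length nor library scaling. The Cflar to Casp8 ratio was 0.656, 0.623 and 0.524 with butyrate, against 0.891, 1.09 and 1.13 in control. Cflar and Casp8 lie 36.3 kb apart, and in every butyrate library c-FLIP transcripts were fewer, relative to those of the neighbouring caspase, than in any control library. The difference was -0.78 on the log2 scale. The Xiap to Casp9 ratio was 2.54, 2.75 and 2.84 with butyrate, against 4.63, 5.32 and 4.84 in control, a difference of -0.86. The Birc3 to Birc2 ratio was 0.306, 0.35 and 0.36 with butyrate, against 0.429, 0.434 and 0.509 in control, a difference of -0.43, so Birc3 was lower relative to Birc2 in each butyrate library than in any control library. In none of the 3 ratios did the groups overlap. Each exact two-sided permutation p was 0.1 (20 arrangements), the smallest that 3 against 3 libraries can give, and with 3 ratios tested the adjusted value is also 0.1.

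**Figure D3:**
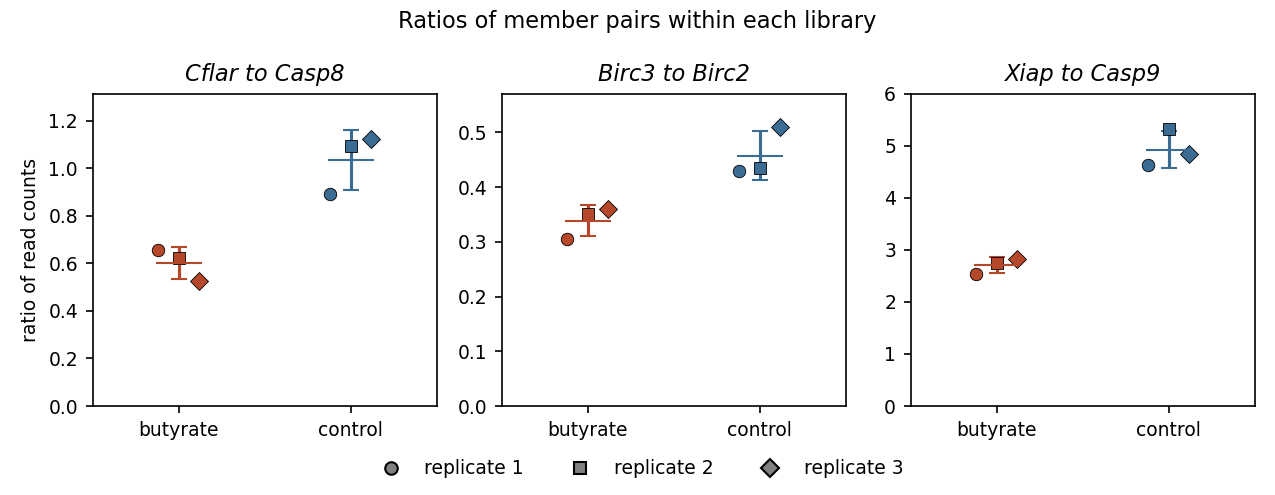
Ratio of read counts of 2 members within each library, for 3 butyrate and 3 control libraries; horizontal lines are means, bars ± SD and shapes replicate numbers. In all 3 panels each butyrate library lies below each control library.

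As a description, with the roles assigned while the values were known, the 4 inhibitor genes summed to 325, 304 and 293 CPM with butyrate, against 540.1, 521 and 515 CPM in control. The other 4 members summed to 349.9, 312 and 358 CPM with butyrate, against 387, 345 and 344 CPM in control. The first sum over the second was 0.906 ± 0.0798 with butyrate and 1.47 ± 0.0639 in control (SD, n = 3 each).

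Neighbouring genes were looked up after the members' values were seen, as the nearest tested gene on each side. Stag2, a cohesin subunit gene 39.6 kb from Xiap, had a log2 fold change of -0.93 (edgeR adjusted p = 0.000614), near that of Xiap, while Thoc2 on the other side was not called (-0.08, adjusted p = 0.403). Beside the Birc2 and Birc3 pair, Tmem123 fell (-0.45, adjusted p = 0.00239), and Yap1, the Hippo pathway coactivator gene 58.8 kb beyond Birc3, rose by a log2 fold change of 3.13 (adjusted p = 2.52e-05) to 32.9 ± 3.1 CPM with butyrate, against 3.73 ± 0.747 CPM in control (SD, n = 3 each). The genes on the far sides of Cflar and Casp8 were Gm20257, not called (-0.31, adjusted p = 0.343), and Trak2, which fell (-0.32, adjusted p = 0.00884). Beside Casp9, Dnajc16 was not called (0.14, 0.435) and Efhd2 fell (-0.29, edgeR adjusted p = 0.0194). Beside Fadd, Ppfia1 rose (0.31, edgeR adjusted p = 0.0378) and LTO1 was not called (-0.18, adjusted p = 0.224). Beside Ripk1, Bphl rose (0.49, adjusted p = 0.0409) and the overlapping Serpinb6a was not called (-0.12, adjusted p = 0.603).

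The 3 genes whose profile over the 6 libraries lay closest to that of Xiap, the member with the largest change, were Rcn1, Hp1bp3 and Mical1. Likeness was the root mean square difference of log2 CPM after centring each gene, at 0.0331, 0.0367 and 0.0437. Their log2 fold changes were -0.97, -1.01 and -0.93, near that of Xiap, which the choice by profile fixes.

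The other genes of the death pathways, 95 genes in 12 lists, gave 86 tested genes, of which 22 were higher and 20 lower (25.6% and 23.3% of those tested, near the shares over all genes), or 27 and 17 with upper quartile scaling. Their median log2 fold change was -0.09. The lists group these genes by their place in the pathway, and no list was tested as a whole. Over all genes tested, 23.5% were called higher and 22.5% lower (45.9% in either direction). Beside those shares, the counts given below for such short lists are a description only.

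Of 6 other caspase genes tested, 1 rose and 1 fell. Casp1, the inflammatory caspase, fell by 0.53 on the log2 scale (adjusted p = 0.0155), a call lost without butyrate replicate 2 (adjusted p = 0.0559) or control replicate 3 (0.0554). Of 4 other IAP family genes tested, 0 were called in either direction, with 0 at an unadjusted edgeR p under 0.05 and 0 by DESeq2 or limma voom. The most abundant, Birc5, which encodes the mitotic protein survivin, had 423 ± 116 CPM with butyrate and 455 ± 28.7 CPM in control (SD, n = 3 each).

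Of 8 apoptosome and IAP antagonist genes, 4 rose and 2 fell, but only 2 rose without butyrate replicate 2 or without control replicate 1. Xaf1, whose product binds XIAP, fell by 2.0 on the log2 scale, to 6.02 ± 0.718 CPM with butyrate, against 24.2 ± 5.34 CPM in control (SD, n = 3 each, edgeR adjusted p = 0.000134). Septin4, which encodes the XIAP antagonist ARTS among other forms, rose, at a very low level, to 3.02 ± 0.599 CPM with butyrate, against 0.526 ± 0.178 CPM in control. Bex3, whose product is linked to death signalling by the neurotrophin receptor p75, rose by 0.51. Apaf1, the scaffold that activates caspase-9, fell by 0.29 (edgeR adjusted p = 0.0175), a call lost without butyrate replicate 3 (0.0528), control replicate 1 (0.059) or control replicate 3 (0.0547), which leaves 1 gene of the list lower.

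At the membrane, 2 of 5 death receptor genes and 2 of 4 tested death ligand genes rose. Fas had 12.7 ± 2.25 CPM with butyrate and 7.36 ± 0.449 CPM in control (SD, n = 3 each), a log2 fold change of 0.79 (edgeR adjusted p = 0.00811). Tnfrsf10b, the mouse TRAIL receptor gene, rose by 0.49 (adjusted p = 0.0426), but its adjusted p was 0.0705 without butyrate replicate 1, 0.146 without butyrate replicate 3, 0.123 without control replicate 2 and 0.11 without control replicate 3. The ligand genes that rose were Lta, by a log2 fold change of 4.35, and Tnf, which averaged 204 ± 42.4 CPM with butyrate and 65.8 ± 13.2 CPM in control (log2 fold change 1.63, adjusted p = 0.000221). No receptor or ligand gene was lower by edgeR's adjusted p, where 1 receptor and 0 ligand genes were lower by unadjusted p, DESeq2 called 1 and 0, and limma voom 0 and 0. The replicate block called 1 receptor and 1 ligand gene lower.

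Of 11 adaptor genes of the receptor complexes, 3 rose and 2 fell. Traf1, whose product brings cIAP1 and cIAP2 to TNF receptors with TRAF2, fell to 95.9 ± 16.4 CPM with butyrate, against 169 ± 24.8 CPM in control (SD, n = 3 each, log2 fold change -0.82, edgeR adjusted p = 0.00176). Traf3, another partner of the cIAPs, fell by 0.24 (adjusted p = 0.0358), a call lost in each fit that left out 1 library (adjusted p of 0.0529 to 0.146). Cradd, an adaptor for caspase-2, and Casp8ap2, a caspase-8 binding protein gene, rose by log2 fold changes of 0.82 and 0.31. Of 10 ubiquitin enzyme genes of the TNF receptor complex, 1 rose and 2 fell: Otulin, a linear ubiquitin protease gene, rose by 0.43, and Itch, a ligase linked to c-FLIP turnover, and Sharpin, a subunit of the linear ubiquitin ligase, fell by 0.55 and 0.44 on the log2 scale.

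Downstream of RIPK1, 1 of 10 TAK1 and IKK kinase genes rose and 3 fell. Mapkapk2, a kinase that phosphorylates RIPK1, rose by a log2 fold change of 0.51, and the IKK-related kinase genes Ikbke and Tbk1 fell by 1.05 and 0.47 on the log2 scale. In the non-canonical NF-kB list, a branch that the cIAPs restrain, 3 of 5 genes fell and 0 rose (1 rose by unadjusted edgeR p, 0 by DESeq2 or limma voom, and 1 with the replicate block). The third gene that fell is Traf3, counted above among the adaptors, and DESeq2 called 2 of the 5 lower. Relb had 13.9 ± 0.551 CPM with butyrate and 23.1 ± 0.229 CPM in control, and Nfkb2 20.9 ± 3.63 and 32.4 ± 3.46 CPM (SD, n = 3 each, log2 fold changes -0.73 and -0.63). Of 6 necroptosis genes, 2 rose and 2 fell. The nucleic acid sensor gene Zbp1 and the adaptor gene Ticam1 rose by log2 fold changes of 0.66 and 0.54, while Peli1, a ubiquitin ligase gene, and Ppm1b, a phosphatase gene, fell by 0.47 and 0.31. Without control replicate 1 the call of Ppm1b was lost (adjusted p = 0.0525), which leaves 1 gene of the list lower.

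Of 13 tested caspase substrate and effector genes, 3 rose and 6 fell (5 rose with the replicate block). Dffb, the nuclease that cuts DNA in apoptosis, fell to 17.0 ± 1.78 CPM with butyrate, against 36.7 ± 1.02 CPM in control (SD, n = 3 each, log2 fold change -1.11, edgeR adjusted p = 0.00014). Rock1, the kinase behind membrane blebbing, fell by 0.82 on the log2 scale, and Lmna and Parp1, genes of nuclear caspase substrates, rose by log2 fold changes of 2.05 and 0.72. Of 5 tested partners of the inflammatory caspases, 3 rose, among them the DNA sensor gene Aim2 and the adaptor gene Pycard, by 0.52 and 0.44, and 0 fell (1 by unadjusted edgeR p, 0 by DESeq2 or limma voom, 1 with the replicate block and 1 without control replicate 2).

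**Figure D4:**
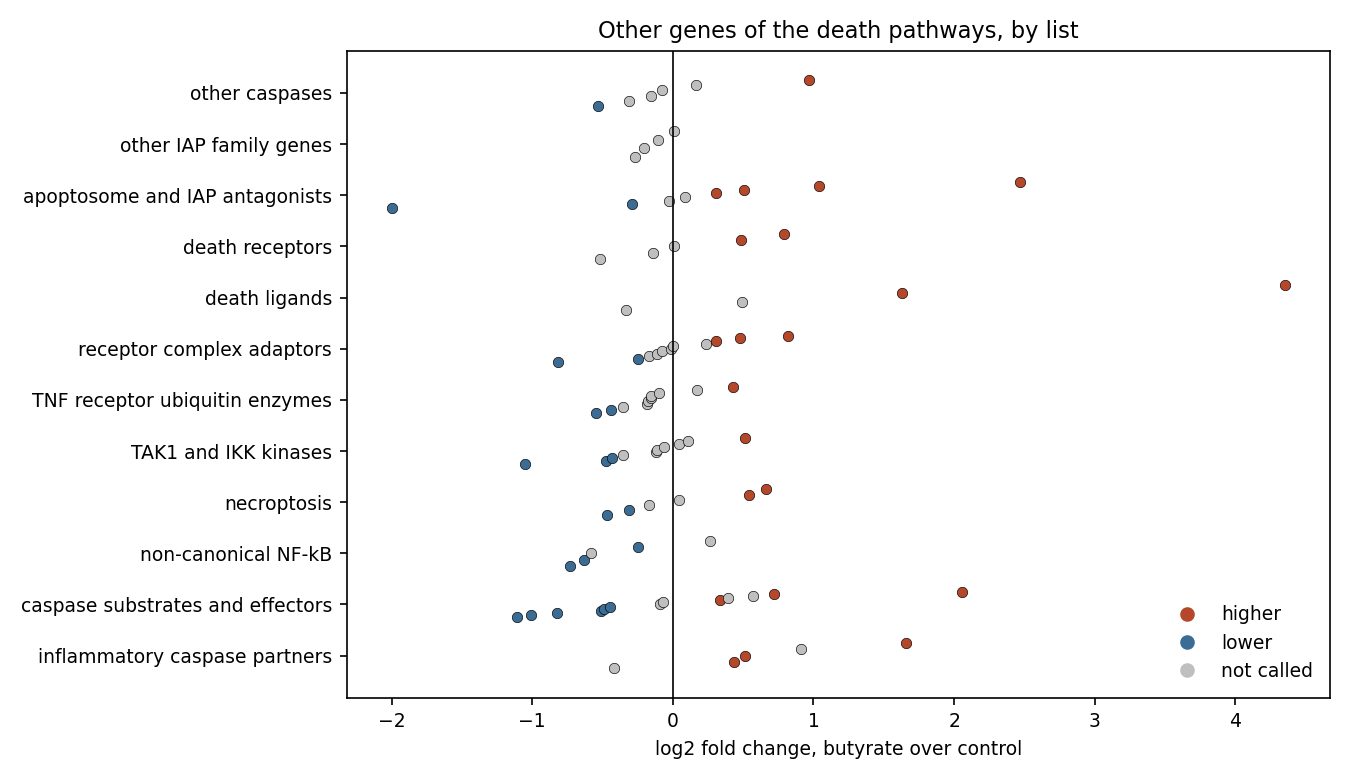
Log2 fold change, butyrate over control, of each tested gene of the 12 death pathway lists; each point is a gene, red where called higher, blue where called lower and grey where not called. Lta, at 4.35, lies farthest to the right and Xaf1, at -2.0, farthest to the left.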

How the data were processed

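The authors deposited raw, unnormalized read counts, with a column for each library and a row for each gene number. Tools named in the submitters' processing notes are featureCounts and Subread, TopHat, Picard, CASAVA and edgeR, with the build mm10; the sources used here give no versions, no strand setting and no rule for shared reads. Columns were matched to samples by the name in each sample's description. Symbols, positions and promoters came from RefSeq (GRCm38.p6), and exon lengths from GENCODE vM21.

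Butyrate libraries were set against control libraries in edgeR (4.0.16, under R 4.3.3), using its quasi-likelihood test after TMM scaling, filterByExpr and Benjamini-Hochberg adjustment over all 11740 genes tested; an adjusted p under 0.05 is a call. CPM are means ± SD (n = 3) of TMM-scaled values over tested genes, standard errors are the log2 fold change over the square root of F, and intervals (95%) use the fit's t quantile. Ratios were differences of log2 CPM (prior count 2), with an exact permutation test. Limits from counts cover counting error only.

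Within a group, any 2 libraries were further apart than counting noise (chi-square over its degrees of freedom 5.43 to 10.6, using genes with 20 counts or more), and each was kept as a replicate. After subtracting group means, same-numbered butyrate and control libraries correlated over genes at 0.362, 0.197 and 0.353, and differently numbered ones at -0.301 to -0.0746. Deviations from a group mean cancel within the group, so positive values for the same numbers push the others negative. The negative values are therefore no separate evidence of pairing. From the same-numbered values the numbers were taken to pair the libraries, but only in the replicate block and in the sign-flip of the ratios. The main fit and the permutation test of the ratios did not use the pairing. The labels tie the numbers to no mouse, culture or day.

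Alternatives were scaling by upper quartile, RLE or library totals, no filter, a filter of 5 CPM in 3 libraries, limma voom (3.58.1), DESeq2 (1.42.0), robust edgeR, glmTreat at a fold of 1.5, the replicate block, and each library left out; for ratios, prior counts of 0.5 and 0. The members and lists were chosen with earlier results of these data known. From each list the text names up to 2 called genes for each direction, those of smallest p, or, with no call, the most abundant gene, and the 3 genes closest in profile to the called member with the largest change. The single-gene results of 1 called list gene and 1 marker are not reported here.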

Additional observations from a re-analysis of the deposited data

How the results depend on the processing

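Xiap and Birc3 were called lower in all 16 alternatives (log2 fold changes of -1.02 to -0.90 and -0.97 to -0.85), and Cflar and Birc2 in 15, all but glmTreat (-0.75 to -0.62 and -0.58 to -0.42). Ripk1 was called in 5: no filter (edgeR adjusted p = 0.0387), limma voom (0.049), robust edgeR (0.0497), the replicate block (0.0294) and without butyrate replicate 1 (0.0329). Without 1 library, Casp8 ranged from -0.025 (without butyrate replicate 3) to 0.22, and Birc5 from -0.26 to 0.10 (without butyrate replicate 3), uncalled in each. Upper quartile scaling moved the median of all genes to 0.09, with 3338 genes called higher and 2067 lower in place of 2756 and 2637. The 3 ratios kept their direction throughout, with a sign-flip p of 0.25 over the replicate block, the smallest that 3 pairs allow; without 1 library the log2 differences were -0.89 to -0.69 (Cflar to Casp8), -0.47 to -0.35 (Birc3 to Birc2) and -0.91 to -0.81 (Xiap to Casp9).

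Against a fold of 1.5, glmTreat called 1593 genes in place of 5393, 2 members lower in place of 4, and 5 list genes higher and 5 lower in place of 22 and 20. Its counts were 0 other caspases lower, 1 apoptosome gene higher and 1 lower, 1 kinase lower, 1 substrate higher and 3 lower, and 0 for death receptors higher, adaptors and ubiquitin enzymes and necroptosis in both directions, kinases and inflammatory partners higher and non-canonical NF-kB lower. Counts that moved by over 1.5 times elsewhere were, with upper quartile scaling, 1 apoptosome gene and 1 adaptor lower, 2 ubiquitin enzymes higher and 1 non-canonical NF-kB gene higher; with DESeq2, 1 death receptor higher, 1 lower and 1 adaptor lower; with limma voom, 1 death receptor higher; with no filter, 1 death receptor higher, 1 lower and 1 inflammatory partner lower; and with the 5 CPM filter, 1 adaptor lower. The replicate block changed the call of no named gene but Ripk1; it gave 2 other caspases lower, 1 other IAP gene lower, 5 substrates higher, and 1 each of death receptors, death ligands and inflammatory partners lower and of non-canonical NF-kB higher. Leaving out 1 library gave 2 to 4 apoptosome genes higher and 1 to 2 lower, 0 to 1 other caspases lower, 1 to 2 death receptors higher and 0 to 1 lower, 0 to 1 death ligands lower, 0 to 1 inflammatory partners lower, 1 to 2 necroptosis genes lower, and 1 adaptor lower in every such fit. The cause of these moves was not tested. Apart from glmTreat, 27 of the 32 called genes that the naming rule picked from the lists kept their call in every fit; Apaf1 (0.0617) and Traf3 (0.136) lost it with upper quartile scaling, Traf3 also with DESeq2 (0.0824) and the 5 CPM filter (0.0542), and Tnfrsf10b with no filter (0.0534), DESeq2 (0.0617) and limma voom (0.0509), besides the losses given for single libraries.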
